A study of Rattus norvegicus with 6 samples.

Results

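The genes described here are 10 genes used by the intercalated cells of the collecting duct, taken from the 17051 genes measured in rat kidney. They were picked by gene symbol and are 6 subunits of the vacuolar proton pump (Atp6v1b1, Atp6v1b2, Atp6v0a4, Atp6v0d2, Atp6v1c2 and Atp6v1g3), the anion exchanger pendrin (Slc26a4), the bicarbonate transporters Slc4a8 and Slc4a9, and the transcription factor Foxi1. All 10 were present in every rat's table, and all 10 passed the filter on low counts (30 reads or more in some rat), as did 11553 genes in all. Not all members are confined to intercalated cells. Atp6v1b2 is expressed in most tissues, so its level in whole kidney is not that of these cells alone.

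Intercalated cells set the final acidity of urine. Type A cells secrete protons with a pump in the membrane facing the urine and return bicarbonate to the blood through the anion exchanger Slc4a1. Type B cells carry pendrin on the urine side, where it secretes bicarbonate in exchange for chloride, and hold the pump on the blood side. The pump has a cytosolic V1 sector, which splits ATP, and a V0 sector in the membrane, through which protons pass. Several subunits exist in a widespread form and in a form that is found in the kidney and few other tissues.

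RNA sequencing of kidney tissue covered 6 male Sprague Dawley rats, 3 in each of 2 groups, and the study related diet to the handling of ammonia by the kidney. The AL group (rats 61, 71 and 88) ate standard chow ad libitum. The HD group (rats 64, 67 and 69) was given the hyperammonemic diet, in which a mixture of amino acids copying the composition of hemoglobin was stirred into the chow at 3 g per kg per day. Both groups were kept on their diet for 7 days and then underwent surgery under isoflurane anesthesia. By the methods of the study, catheters were placed in the jugular vein and ureter, and para-aminohippuric acid was infused to measure renal blood flow. The labels name no transgene and no treatment other than the diet. In such bulk tissue, fewer cells of a type and less RNA per cell cannot be told apart.

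The promoters are shown for pendrin, whose level differed most between the diets, and for the B1 and G3 pump subunits, the members in which the letters TGTTTA were found. These letters, searched on both strands (TAAACA on the other), are a core of the sites bound by forkhead factors, the family to which Foxi1 belongs. Each line gives the 250 bases before the start of the gene, 5′ to 3′ on the gene's strand, from RefSeq (build GRCr8), and capitals mark the searched letters. The Slc26a4 window lies at chr6:53873217-53873466 on the minus strand, that of Atp6v1b1 at chr4:117781194-117781443 on the plus strand, and that of Atp6v1g3 at chr13:52362082-52362331 on the plus strand.
Slc26a4: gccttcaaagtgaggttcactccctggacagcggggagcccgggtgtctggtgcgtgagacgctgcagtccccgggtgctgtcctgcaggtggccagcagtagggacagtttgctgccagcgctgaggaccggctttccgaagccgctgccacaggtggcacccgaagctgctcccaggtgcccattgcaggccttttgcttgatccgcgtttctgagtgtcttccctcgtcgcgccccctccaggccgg
Atp6v1b1: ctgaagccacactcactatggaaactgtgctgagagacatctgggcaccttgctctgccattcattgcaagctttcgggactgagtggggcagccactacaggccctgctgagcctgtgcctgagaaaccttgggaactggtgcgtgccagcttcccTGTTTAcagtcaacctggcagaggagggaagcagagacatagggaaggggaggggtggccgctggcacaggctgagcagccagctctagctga
Atp6v1g3: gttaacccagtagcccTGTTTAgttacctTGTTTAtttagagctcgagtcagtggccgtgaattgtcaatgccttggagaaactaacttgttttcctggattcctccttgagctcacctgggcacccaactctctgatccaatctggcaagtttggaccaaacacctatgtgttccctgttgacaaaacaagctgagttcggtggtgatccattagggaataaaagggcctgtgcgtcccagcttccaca
The letters began 93 bases before the start of Atp6v1b1, and 234 and 221 bases before the start of Atp6v1g3. Of the 8 members with an entry in the promoter table, 2 held them, and 12.1% of the 33469 promoters did so over the same 250 bases. Atp6v1b2 and Atp6v0d2 had no entry. The letters are a description of these windows, and binding was not measured.

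The total estimated count per rat lay between 12499945 and 30466461, with the HD group holding both the smallest (rat 64) and the largest library (rat 69). Levels are given as CPM, counts scaled to the library size and corrected by the trimmed mean (TMM) method, with the SD over 3 rats, and genes are compared with each other only in TPM, the transcript abundance that RSEM corrects for length. Across all 11553 tested genes, edgeR's quasi-likelihood test called 0 genes at an adjusted P of at most 0.05, and DESeq2 called 182 genes, or 1.58%. Of the tested genes, 10.6% had an unadjusted P below 0.05 in edgeR. The labels do not pair the rats, and each rat was a library of its own.

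Of the 10 members, 0 passed the adjusted threshold in edgeR and 1, Slc26a4, had an unadjusted P below 0.05, which is close to the background of 10.6%. In DESeq2, Slc26a4 was also the only member with an adjusted P of at most 0.05 (adjusted P = 0.000206), and 2 members, Slc26a4 and Atp6v0a4, had an unadjusted P below 0.05, against 11.5% of all genes. The fitted log2 fold change (HD over AL) was above 0 for all 10 members and for 51.3% of all tested genes, with a median of 0.28 over the members and 0.0067 over all genes. Scaled by library size alone, which put the median of all genes at -0.07, 8 of 10 members were above 0. In TMM-normalized CPM, the HD rats lay above every AL rat for 2 members, Slc26a4 and Atp6v0a4, and 7.24% of all genes did so. In TPM and in CPM by library size alone, only Slc26a4 kept this separation (4.25% and 4.09% of all genes), and Atp6v0a4 overlapped. They lay below every AL rat for 0 members and for 7.01% of all genes.

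**Figure D1:**
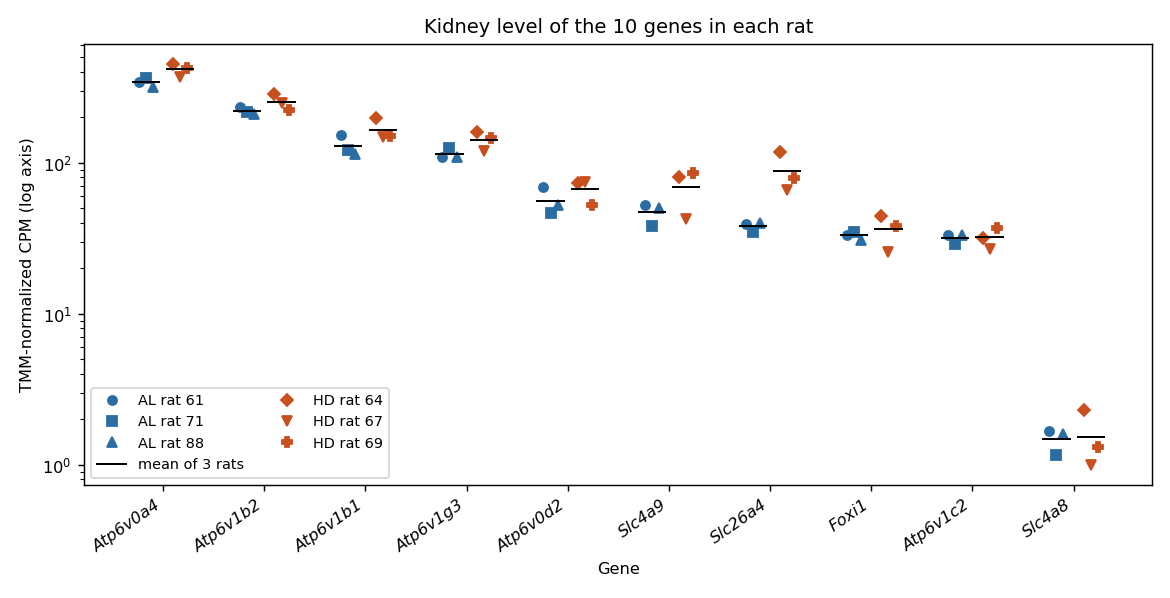
TMM-normalized CPM (vertical log axis) of the 10 genes in each rat, with blue symbols for the 3 AL rats, orange symbols for the 3 HD rats and a black line at each group's mean. The HD rats lie above all AL rats for Slc26a4 (66.3 or more against 40.0 or less) and for Atp6v0a4 (368 or more against 362 or less), and overlap them for the other 8 genes. In TPM and in CPM by library size alone, the groups overlap for Atp6v0a4 too.

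Pendrin, encoded by Slc26a4, was the member that differed most between the diets. The gene lies at chr6:59479855-59518321 on the minus strand (rn5, as for all gene positions below) and was measured over its 20 exons. Its level was 39.5, 34.5 and 40.0 CPM in AL rats 61, 71 and 88, and 117, 66.3 and 79.6 CPM in HD rats 64, 67 and 69. The AL rats were close together, and the HD rats were spread more widely but stayed above them. The group means were 38.0 ± 3.01 CPM (SD, n = 3) in AL and 87.7 ± 26.3 CPM (SD, n = 3) in HD, a fitted fold of 2.30. The log2 fold change was 1.20 with a standard error of 0.21 (edgeR, unadjusted P = 0.00058, adjusted P = 0.327). By unadjusted P, Slc26a4 ranked at position 20 of the 11553 tested genes. The counts behind it ran from 497 to 2490 reads per rat. The difference between the means was larger than the SD of either group, but the adjusted P in edgeR missed the threshold. Leaving out each rat in turn kept the log2 fold change between 0.94 and 1.37.

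The other bicarbonate transporter of type B cells with a sizable level was Slc4a9 (chr18:29059322-29075122, plus strand, 22 exons), known as AE4 and placed in the membrane on the blood side of these cells. It was at 52.7, 38.1 and 50.2 CPM in AL rats 61, 71 and 88 and at 80.7, 42.4 and 85.1 CPM in HD rats 64, 67 and 69. HD rats 64 and 69 lay above all AL rats, and rat 67 lay within the AL range. This gave a log2 fold change of 0.56 with a standard error of 0.27 (edgeR, adjusted P = 0.510). Without rat 67 it was 0.82, the largest value when a rat was left out, and the lowest was 0.40.

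Slc4a8 (chr7:140201594-140266973, plus strand), a sodium-driven exchanger of chloride and bicarbonate that is held to work beside pendrin in sodium chloride uptake, was near the limit of detection. Its 3 transcripts together had between 20 and 41 reads per rat. Its level was between 1.16 and 1.67 CPM in the AL rats and between 1.00 and 2.29 CPM in the HD rats, with the AL rats inside the HD range. Its log2 fold change was 0.04 with a standard error of 0.44 (edgeR, adjusted P = 0.989), so a difference between the diets was not detectable at this depth.

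Foxi1 (chr10:19039086-19043025, minus strand, 2 exons), the forkhead factor that intercalated cells need to form and to express pump subunits, had overlapping levels under the diets. It was at 33.0, 34.9 and 31.0 CPM in AL rats 61, 71 and 88 and at 44.6, 25.6 and 38.1 CPM in HD rats 64, 67 and 69. The lowest and the highest of the 6 rats both were HD rats. Foxi1 had a log2 fold change of 0.13 with a standard error of 0.20 (edgeR, adjusted P = 0.880), which was -0.047 without rat 64.

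Set against Foxi1 within each rat, the TPM of Slc26a4 was 0.969, 0.800 and 1.04 times that of Foxi1 in AL rats 61, 71 and 88. It was 2.12, 2.09 and 1.69 times that of Foxi1 in HD rats 64, 67 and 69. On this scale HD rats 64 and 67 were nearly level, whereas their CPM of Slc26a4 stood apart. The mean log2 ratio was -0.10 ± 0.20 (SD, n = 3) in AL and 0.97 ± 0.18 (SD, n = 3) in HD. The TPM of Slc4a9 was 1.17, 0.798 and 1.19 times that of Foxi1 in the AL rats and 1.32, 1.21 and 1.63 times in the HD rats, again with every HD rat above every AL rat. These ratios to Foxi1 were chosen after the values had been seen and were not tested.

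Among the pump subunits, the values of the HD group were higher on average for all 6, by fitted folds between 1.01 and 1.29 with TMM scaling, with Atp6v1c2 (1.01) turning lower by library size alone and in TPM, and no subunit had an unadjusted P below 0.05 in edgeR. The summed level of the 6 was 937, 899 and 838 CPM in AL rats 61, 71 and 88 and 1196, 985 and 1036 CPM in HD rats 64, 67 and 69. It includes the widespread Atp6v1b2 and so is not a level of intercalated cells alone. In this sum the HD rats were all above the AL rats, and rat 64 was highest. The separation was lost under other scalings: HD rat 67 was below AL rat 71 in TPM (605 against 647) and in CPM by library size alone (935 against 986).

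In the V1 sector, the B subunit takes part in ATP binding and exists as B1 in the kidney and inner ear and as B2 in most tissues. Atp6v1b1 (chr4:180005842-180024878, plus strand, 14 exons), whose loss in people causes distal renal tubular acidosis with deafness, was at 152, 120 and 114 CPM in AL rats 61, 71 and 88 and at 198, 148 and 151 CPM in HD rats 64, 67 and 69. AL rat 61 was above HD rats 67 and 69, so the groups overlapped. For B1 the log2 fold change was 0.36 with a standard error of 0.17 (edgeR, adjusted P = 0.493). Without AL rat 61 it was 0.50 (edgeR, unadjusted P = 0.020), the highest value when a rat was left out. The lowest was 0.22, without HD rat 64 (edgeR, unadjusted P = 0.222).

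Atp6v1b2 (chr16:22221011-22244664, minus strand, 14 exons) was at 234, 216 and 211 CPM in the AL rats and at 284, 248 and 224 CPM in the HD rats, in the same order of rats. HD rat 69 lay inside the AL range. For B2 the log2 fold change was 0.20 with a standard error of 0.12 (edgeR, adjusted P = 0.639).

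The G subunit forms part of the stalk that holds the V1 sector in place, and G3 is its kidney form. Atp6v1g3 (chr13:60307337-60321789, plus strand, 3 exons) was at 109, 126 and 110 CPM in AL rats 61, 71 and 88 and at 159, 119 and 145 CPM in HD rats 64, 67 and 69. HD rats 64 and 69 were above all AL rats, and rat 67 was below AL rat 71. For G3 the log2 fold change was 0.29 with a standard error of 0.14 (edgeR, adjusted P = 0.505).

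The C subunit joins the V1 and V0 sectors, and C2 is its form with the narrower distribution. Atp6v1c2 (chr6:52307211-52351972, minus strand, 13 exons) was at 33.1, 28.8 and 33.2 CPM in the AL rats and at 31.8, 26.8 and 37.2 CPM in the HD rats. Both extremes were HD rats and the means were nearly equal, with a log2 fold change of 0.01 and a standard error of 0.15 (edgeR, adjusted P = 0.988). The sign turned, with -0.058, under scaling by library size alone.

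In the V0 sector, the a subunit forms the proton path together with the ring of c subunits, and a4 is the form of the kidney, inner ear and epididymis. Atp6v0a4 (chr4:65554091-65635822, minus strand, 20 exons) was at 341, 362 and 318 CPM in AL rats 61, 71 and 88 and at 450, 368 and 426 CPM in HD rats 64, 67 and 69. On this scale all HD rats lay above all AL rats, with HD rat 67 and AL rat 71 close together. In TPM the groups overlapped, with 169 in HD rat 67 below 197 in AL rat 71, and in CPM by library size alone they overlapped as well (349 against 397). The log2 fold change was 0.29 with a standard error of 0.12 (edgeR, unadjusted P = 0.052, adjusted P = 0.473). In DESeq2 the unadjusted P was 0.039 and the adjusted P 0.390.

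The d subunit couples the rotor to the c ring, and d2 is found in the kidney and in osteoclasts. Atp6v0d2 (chr5:38499082-38547691, minus strand, 8 exons) was at 68.6, 46.2 and 52.2 CPM in the AL rats and at 73.3, 74.8 and 52.8 CPM in the HD rats. HD rats 64 and 67 were above all AL rats, and HD rat 69 was level with AL rat 88. For d2 the log2 fold change was 0.27 with a standard error of 0.19 (edgeR, adjusted P = 0.692).

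**Figure D2:**
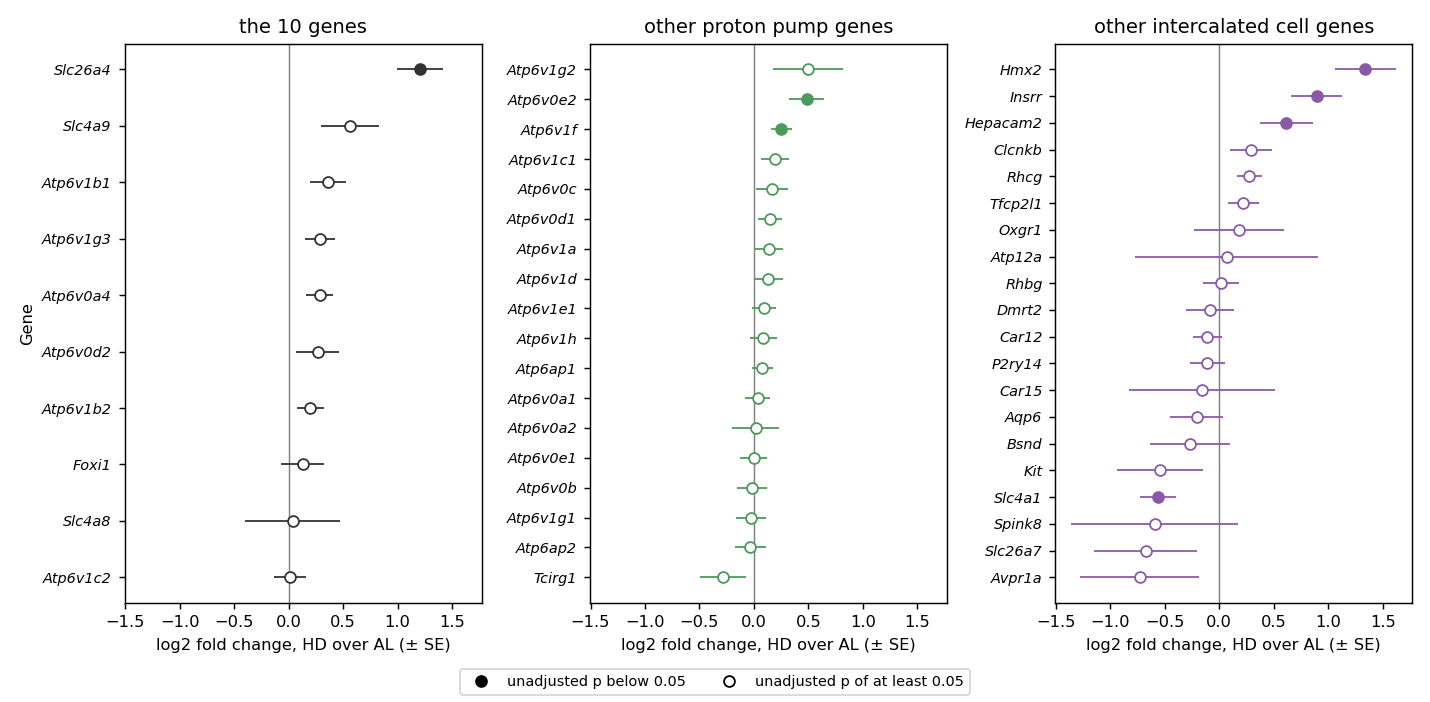
Fitted log2 fold change of HD over AL (horizontal axis, bars are standard errors) for the 10 genes, for other genes of the proton pump and for other intercalated cell genes, with filled circles where the unadjusted P in edgeR was below 0.05. Slc26a4 is the filled circle among the 10 genes, at 1.20, whereas most pump genes lie near 0.

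The HD rats did not hold the same place for every member. Rat 64 had the highest CPM of the 6 rats for 7 of the 10 members, rat 69 for 2 and rat 67 for 1. Within the HD group rat 67 was lowest for 8 members, and it was the lowest of all 6 rats for 3. The highest rat of the 6 was an HD rat for every member, but how often this held over all tested genes was not counted. The number of members with an unadjusted P below 0.05 in edgeR was 4 without rat 67 (Slc26a4, Slc4a9, Atp6v0a4 and Atp6v1g3) and 3 without rat 61 (Slc26a4, Atp6v1b1 and Atp6v0d2). It was 1 when any other rat was left out. The share over all tested genes was not counted in these fits, so the numbers stand without a background.

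In TPM, Atp6v0a4 was the most abundant member with a mean of 185 over the 6 rats, followed by Atp6v1b2 (136), Atp6v1g3 (117), Atp6v1b1 (91.4) and Atp6v0d2 (73.8). Atp6v1c2 (36.1), Slc26a4 (33.7), Slc4a9 (28.5) and Foxi1 (23.2) came next, and Slc4a8 was last with 0.645. Separated from the next gene in every pairing of rats were only Atp6v0d2 from Atp6v1c2 and Foxi1 from Slc4a8. Atp6v0a4 was above Atp6v1b2, Atp6v1g3 above Atp6v1b1, and Atp6v1b1 above Atp6v0d2 within all 6 rats, though their ranges met. Slc26a4 was above Atp6v1c2 in 3 of the 6 rats, all of them HD rats, so the order of this pair over all 6 rats mixes the diets.

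The place of pendrin in this order differed by diet. Its TPM was 19.9, 20.9 and 22.6 in AL rats 61, 71 and 88, below that of Atp6v1c2 (34.7, 36.2 and 39.0). In HD rats 64, 67 and 69 it was 60.5, 33.7 and 44.9, above that of Atp6v1c2 (34.3, 28.4 and 43.6).

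Ratios of TPM within a rat compare a subunit with its more widespread counterpart, independent of the scaling between libraries. Log2 ratios were compared for 6 pairs with exact two-sided permutation tests over the rats, which with 3 against 3 cannot give a P below 0.1. B1 stood at 0.705, 0.604 and 0.587 of B2 in AL rats 61, 71 and 88 and at 0.757, 0.647 and 0.731 of B2 in HD rats 64, 67 and 69. The difference in log2 ratio was 0.17 (exact P = 0.2, 0.4 adjusted over the 6 pairs), and the groups overlapped.

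The a4 subunit was the main a form in this pairing, at 6.83, 7.71 and 6.47 times the TPM of a1 (Atp6v0a1) in the AL rats and 10.1, 7.52 and 7.63 times in the HD rats. The difference in log2 ratio was 0.25 (exact P = 0.3, 0.45 adjusted). The widespread form had the higher TPM in the other pairs of subunits. The share of d2 in the sum of d2 and d1 (Atp6v0d1) was 13.9% ± 1.77 (SD, n = 3) in AL and 14.9% ± 2.13 (SD, n = 3) in HD, with exact P = 0.5 for the log2 ratio. The share of C2 in C2 plus C1 (Atp6v1c1) was 25.4% ± 1.35 (SD, n = 3) and 23.1% ± 4.39 (SD, n = 3), with exact P = 0.5. The share of G3 in G3 plus G1 (Atp6v1g1) was 20.0% ± 3.04 (SD, n = 3) and 23.8% ± 4.25 (SD, n = 3), with exact P = 0.2. The adjusted values of the latter 3 pairs were between 0.4 and 0.5. For all 5 pairs of subunits the groups overlapped. With 3 against 3 these tests cannot give a P below 0.1, so they cannot decide whether a difference exceeded the spread between rats. The B1 to B2 difference of 0.17 in log2 ratio was larger than the SD of either group (0.14 in AL, 0.12 in HD). The same held for the a4 to a1 difference of 0.25 (SD 0.13 in AL, 0.24 in HD). For the d, C and G pairs the difference was smaller in size than the SD in HD.

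Pendrin was also compared with Slc4a1, the anion exchanger of type A cells. The TPM of Slc26a4 was 0.0855, 0.0933 and 0.103 times that of Slc4a1 in AL rats 61, 71 and 88. It was 0.454, 0.199 and 0.336 times that of Slc4a1 in HD rats 64, 67 and 69, and every HD rat was above every AL rat. The mean log2 ratio was -3.42 ± 0.13 (SD, n = 3) in AL and -1.68 ± 0.60 (SD, n = 3) in HD, so the ratio was 3.33 times as high in HD. The exact permutation test gave P = 0.1, the smallest value that this design allows (0.4 adjusted over the 6 pairs).

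**Figure D3:**
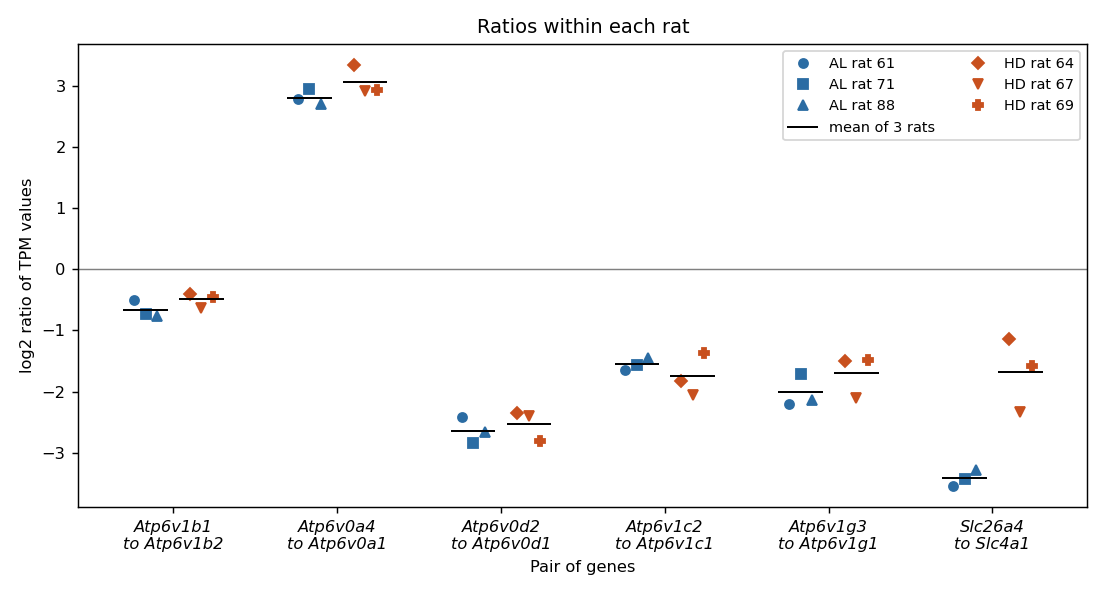
Log2 ratio of TPM values (vertical axis) within each rat for 5 pairs of proton pump subunits and for Slc26a4 to Slc4a1, with blue symbols for AL rats, orange symbols for HD rats and a black line at each group's mean. The groups overlap for the subunit pairs, and for Slc26a4 to Slc4a1 the HD mean of -1.68 lies above the AL mean of -3.42 with no overlap.

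Both partners contributed to that ratio. Slc4a1 was at 730, 586 and 615 CPM in AL rats 61, 71 and 88 and at 408, 527 and 375 CPM in HD rats 64, 67 and 69. All HD rats lay below all AL rats, and rat 67 was again the HD rat nearest to the AL group. The log2 fold change was -0.56 with a standard error of 0.17 (edgeR, unadjusted P = 0.011, adjusted P = 0.401). Relative to Foxi1, the mean log2 ratio of Slc4a1 was 3.32 ± 0.20 (SD, n = 3) in AL and 2.65 ± 0.65 (SD, n = 3) in HD, and on this scale rat 67 lay inside the AL range.

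Slc4a1 also encodes the band 3 protein of red blood cells, so 10 red cell genes were listed after the data had been seen. Of the 7 that passed the count filter, 6 had a log2 fold change above 0 and 1 was below 0. The hemoglobin genes Hba2, Hba1 and Hbb stood at 0.85, 0.72 and 0.56, the opposite direction to Slc4a1. The 1 gene below 0 had the same direction as Slc4a1. None of the 7 passed the adjusted threshold in edgeR, and in DESeq2 Hba2 did (adjusted P = 0.029). Reads of Hba1 and Hba2 may be shared, since these genes are near copies. The summed level of the 7 was between 715 and 1096 CPM in the AL rats and between 1023 and 1838 CPM in the HD rats. The part of red cell RNA in the level of Slc4a1 was not tested.

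Most other pump genes had log2 fold changes near 0. Of 19 further pump genes, 18 were tested and 0 passed the adjusted threshold in edgeR, 13 were above 0 and 5 below, and their median was 0.09 on the log2 scale. With an unadjusted P below 0.05 there were 2, both higher in HD, against a background of 4.66% of genes in that direction. Atp6v0e2, a small V0 subunit, was at 72.6, 84.0 and 57.5 CPM in AL rats 61, 71 and 88 and at 113, 93.5 and 92.8 CPM in HD rats 64, 67 and 69, a log2 fold change of 0.48 (edgeR, adjusted P = 0.406). Atp6v1f, the F subunit of the rotor, was at 106, 94.6 and 98.8 CPM in the AL rats and at 120, 118 and 118 CPM in the HD rats, a log2 fold change of 0.25 (edgeR, adjusted P = 0.434). Without AL rat 88 or HD rat 64, and with scaling by library size alone, the count of such genes was 0 in place of 2. It was 1 without AL rat 71, HD rat 67 or HD rat 69.

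The counterparts used in the ratios had log2 fold changes of 0.04 (Atp6v0a1), 0.15 (Atp6v0d1), 0.19 (Atp6v1c1) and -0.03 (Atp6v1g1), with adjusted P values in edgeR between 0.643 and 0.972. The sign of Atp6v0a1 turned with scaling by library size alone, to -0.039. The remaining pump genes that were tested had log2 fold changes between -0.29 and 0.50.

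Among 22 other genes of intercalated cells, 20 were tested and 0 passed the adjusted threshold in edgeR, with 9 above 0, 11 below 0 and a median log2 fold change of -0.10. With an unadjusted P below 0.05 there were 3 higher in HD, against a background of 4.66%, and 1 lower, Slc4a1, against a background of 5.94%. The homeobox gene Hmx2 was at 2.70, 2.22 and 3.57 CPM in AL rats 61, 71 and 88 and at 7.13, 8.54 and 5.85 CPM in HD rats 64, 67 and 69, a log2 fold change of 1.34 with a standard error of 0.28 (edgeR, adjusted P = 0.368). Insrr, a receptor that responds to alkaline pH, was at 19.8, 20.8 and 17.4 CPM in the AL rats and at 40.8, 23.8 and 43.2 CPM in the HD rats, a log2 fold change of 0.89 (edgeR, adjusted P = 0.398). All HD rats lay above all AL rats for Hmx2, also in TPM and in CPM by library size alone. For Insrr this held in TMM-normalized CPM only, since in TPM HD rat 67 (6.85) was below AL rat 71 (7.14), and the groups also overlapped in CPM by library size alone. In DESeq2 the adjusted P values of Hmx2 and Insrr were 0.013 and 0.049.

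Hepacam2, a cell adhesion protein, was at 8.42, 9.09 and 9.99 CPM in the AL rats and at 18.0, 9.84 and 14.4 CPM in the HD rats, a log2 fold change of 0.61 (edgeR, adjusted P = 0.441). Rat 67 was again the HD rat within the AL range, as for Slc4a9. The ammonia channel Rhcg, found in intercalated and principal cells, had a log2 fold change of 0.28 with an unadjusted P of 0.050 (edgeR, adjusted P = 0.471).

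**Figure D4:**
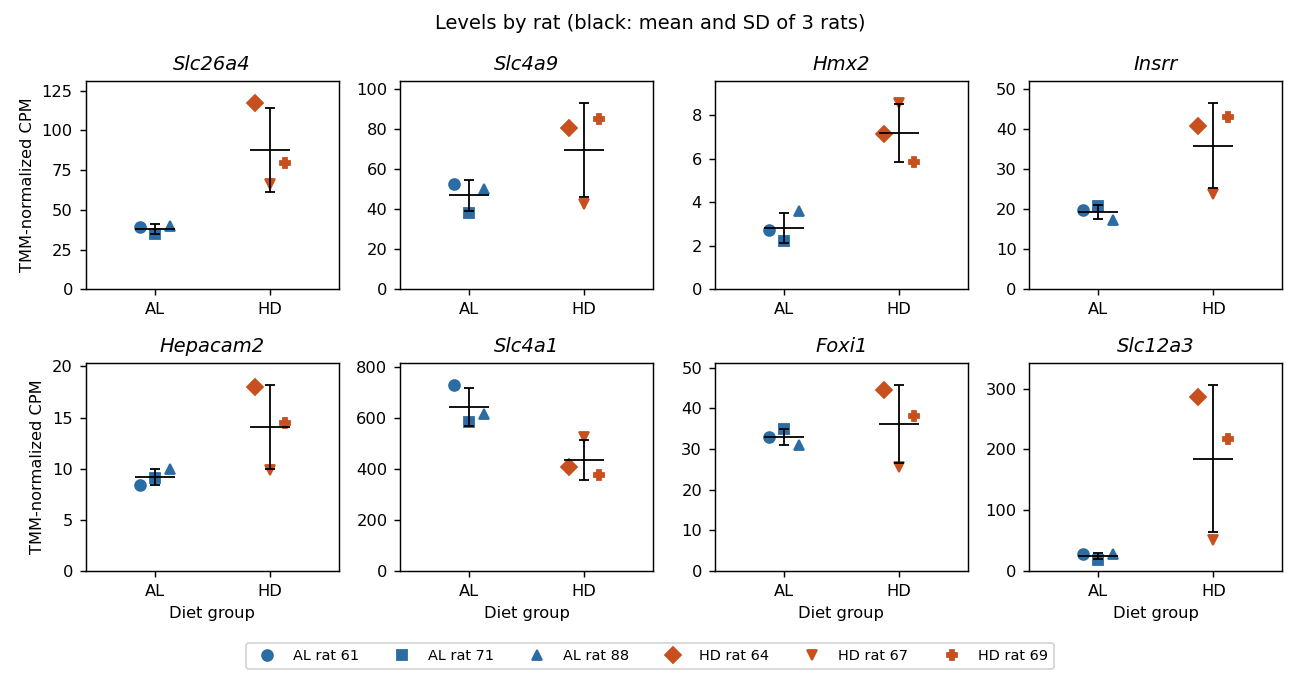
TMM-normalized CPM (vertical axes from 0) by diet group for 7 intercalated cell genes and for Slc12a3 of the distal convoluted tubule, with a symbol for each rat and black bars for the mean and SD of 3 rats. The HD rats lie above the AL rats for Slc26a4, Hmx2, Insrr and Slc12a3, below them for Slc4a1, and overlap them for Slc4a9, Hepacam2 and Foxi1. In TPM and in CPM by library size alone, the groups overlap for Insrr too.

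Values of markers of other cells also differed between the diets, and no tested marker was at 0 in any rat. Slc12a3, the sodium chloride cotransporter of the distal convoluted tubule, was at 27.6, 18.1 and 27.2 CPM in AL rats 61, 71 and 88 and at 287, 51.5 and 216 CPM in HD rats 64, 67 and 69. The HD rats had the same order as for Slc26a4, with rat 64 highest and rat 67 lowest. This order is not particular to the pair, since Atp6v0a4, Foxi1 and Rhcg had it too. Slc12a3 was 1 of the 2 markers of this segment that were tested (log2 fold change 2.93, edgeR, adjusted P = 0.338). The other, Wnk4, named after its values were seen, had a log2 fold change of -0.16 and overlapping groups, at 147, 93.8 and 129 CPM in the AL rats and 113, 93.4 and 124 CPM in the HD rats. The sum of both was between 112 and 174 CPM in AL and between 145 and 400 CPM in HD.

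The principal cells, which share the collecting duct with the intercalated cells, had 10 markers tested. Their sum was between 1830 and 1981 CPM in AL and between 1634 and 2048 CPM in HD, their defining marker Aqp2 had a log2 fold change of -0.05, and 5 had an unadjusted P below 0.05, with 2 higher and 3 lower in HD. The sum of 9 tested proximal tubule markers was between 15601 and 17408 CPM in AL and between 16651 and 21062 CPM in HD, and 4 had an unadjusted P below 0.05, all higher. The sum of 6 thick ascending limb markers was between 5726 and 6477 CPM in AL and between 3923 and 6102 CPM in HD, with 1 at an unadjusted P below 0.05, Slc12a1 (log2 fold change -0.86). Over all tested genes, 4.66% were higher and 5.94% lower in HD at this threshold in edgeR.

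The sum of 8 podocyte markers was between 62.5 and 161 CPM in AL and between 214 and 450 CPM in HD, with 4 at an unadjusted P below 0.05, all higher. The sum of 9 macrophage markers was between 153 and 500 CPM in AL and between 63.6 and 133 CPM in HD, with 6 at an unadjusted P below 0.05, all lower. The background for these counts was again 4.66% of all tested genes for higher and 5.94% for lower. None of these markers passed the adjusted threshold in edgeR. The part of differences in tissue makeup in the values of the 10 genes was not tested.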

How the data were processed

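Kidney RNA of 6 rats was sequenced as single-end reads of 100 bases from poly(A)-selected libraries. The authors quantified transcripts with RSEM 1.1.15 on UCSC gene definitions for rn5 and deposited estimated counts, posterior mean counts (expected counts) and TPM values per transcript. The library kit did not mark strand, and no exon of a member overlapped another gene in the files.

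Estimated counts were summed per gene and rounded, and genes reaching 30 reads in any rat were tested with edgeR 4.0.16 in R 4.3.3 (TMM, quasi-likelihood, diet as the only factor, Benjamini-Hochberg). The standard error is the log2 fold change divided by the square root of F. DESeq2 1.42.0, limma 3.58.1, other scalings and filters, and leaving out each rat were alternatives. TPM ratios used a pseudocount of 0.01 and exact permutation tests (scipy 1.17.1).

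The members, gene lists and tests were chosen with earlier results of these data known. Named are all members, their partners in the ratios, and genes of the other lists with an unadjusted P below 0.05, in part. The red cell list and the ratios to Foxi1 were added after the data had been seen. The values of 1 gene of that list are not reported here. Diet length and dose, the surgery and the infusion come from the methods of the study, not from the sample labels. P values weigh the difference between the diets against variation between rats, with 3 rats per group. In edgeR the estimate of this variation also draws on the other tested genes.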

Additional observations from a re-analysis of the deposited data

How the results depend on the processing

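The median log2 fold change of the members stayed between 0.20 and 0.34 over all alternatives, and Slc26a4 stayed between 0.94 and 1.37. The number of members with an unadjusted P below 0.05 was 1 in edgeR, 2 in DESeq2 and 2 with every gene above 0 in any rat kept, and between 1 and 4 with each rat left out. For the fits without a rat, the share over all tested genes was not counted. The number at an adjusted P of at most 0.05 was 0 in edgeR and 1 in DESeq2, and 0 with each rat left out. The HD rats lay above all AL rats for 2 members in TMM-normalized CPM and for 1 in TPM and 1 in CPM by library size alone, scalings added after the data had been seen. The log2 fold change turned negative for Atp6v1c2 with library size alone (-0.058), with 10 reads required in each rat (-0.00028) and in limma on log2(TPM + 0.5) (-0.067), and for Slc4a8 (-0.039 with library size alone, -0.025 in limma). Atp6v0a1 turned to -0.039 and -0.042 in these. With each rat left out, the range was -0.11 to 0.13 for Atp6v1c2, -0.34 to 0.27 for Slc4a8, -0.047 to 0.32 for Foxi1, -0.051 to 0.11 for Atp6v0a1 and -0.12 to 0.054 for Atp6v1g1. Slc4a8 failed the count filter without rat 69. The cause of these turns was not tested. The 6 ratios kept their direction with a pseudocount of 0.5, with CPM in place of TPM and with each rat left out. No paired analysis was possible because the labels give no replicate numbers that the groups share. Slc4a8 is limited by its depth of at most 41 reads per rat, and 3 rats per group limit all tests.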
